A study of Mus musculus with 16 samples.

Results

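Gm10800 and Gm10801 are predicted genes that lie side by side on mouse chromosome 2, and the peaks described here are all those whose start fell in the 100 kb from 98.6 to 98.7 Mb (GRCm38) around them. That rule took 28 of the 7582 peaks in 12 lists. The locus was chosen by measured values, namely its listed peaks and their fold enrichments in these same lists, so those values are given as a description and carry no test. All 28 peaks fell between chr2:98662146 and chr2:98667423, a span of 5278 bp, and none lay elsewhere in the 100 kb. Gm13806, a processed pseudogene at chr2:98601030-98601354 on the plus strand and the other annotated gene in the 100 kb, held no peak.

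The lists report DNA immunoprecipitated with an antibody to 5-hydroxymethylcytosine (5hmC), taken from c-kit+ bone marrow cells, the stem and progenitor fraction. Every mouse carried NHD13, the NUP98-HOXD13 fusion transgene that serves as a model of myelodysplastic syndrome, so no group was free of it. The 2 groups were NHD13/Tet2-KO, in which the enzyme TET2 was knocked out, and NHD13 with Tet2 intact, called control below. The Tet2 allele, the cells in which it was removed, and the age and number of mice are not given in the sources used here. Titles gave each of the 12 libraries a library number and a pool: numbers 1 and 7 were knockout, 3 and 5 were control, and each was immunoprecipitated in pools 1, 2 and 3. Libraries that share a number were treated as repeats of a single DNA sample, a reading that rests on the titles alone, so the spread between pools may be technical. Peak lists hold no expression, and neither the cell type nor the knockout could be checked from the locus.

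TET enzymes oxidise 5-methylcytosine to 5hmC, and in mouse DNA both marks sit mainly on CpG sites, where cytosine is followed by guanine. Satellite DNA is made of short units repeated head to tail, and in the mouse the major and minor satellites build the chromatin around and at the centromeres. Such arrays are largely absent from the assembled genome. Reads from them can therefore align to the few related copies that the assembly does hold, and a pile of reads at such a copy need not come from that place. For that reason a level at this locus describes aligned reads, not the state of one chromosomal site.

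Merged over the lists, the 28 peaks formed 4 separate intervals, numbered here from low to high coordinate. Interval 1 was chr2:98662146-98663053, interval 2 chr2:98663765-98664078, interval 3 chr2:98664926-98665304 and interval 4 chr2:98666149-98667423. Their lengths were 908, 314, 379 and 1275 bp, and the stretches of 711, 847 and 844 bp between them held no peak in any list. The sequences below are the 120 bases around the median summit of each interval, in GRCm38 on the plus strand. They are shown because they surround the median called summits, and the capitals mark CpG sites. A summit is called from aligned fragments, so the mark bound by the antibody need not be highest there.

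Interval 1, chr2:98662603-98662722: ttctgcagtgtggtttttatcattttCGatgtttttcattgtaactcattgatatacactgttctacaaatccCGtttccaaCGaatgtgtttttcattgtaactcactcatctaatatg
Interval 2, chr2:98663854-98663973: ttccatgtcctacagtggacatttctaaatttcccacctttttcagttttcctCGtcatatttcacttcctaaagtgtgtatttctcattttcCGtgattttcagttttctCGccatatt
Interval 3, chr2:98665057-98665176: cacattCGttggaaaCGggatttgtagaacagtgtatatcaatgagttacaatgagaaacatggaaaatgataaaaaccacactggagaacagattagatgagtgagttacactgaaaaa
Interval 4, chr2:98666778-98666897: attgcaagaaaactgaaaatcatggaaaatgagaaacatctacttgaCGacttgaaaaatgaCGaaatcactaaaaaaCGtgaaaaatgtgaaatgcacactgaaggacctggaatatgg

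The summit windows of intervals 1, 2 and 4 held 3 CpG sites each and that of interval 3 held 2. G and C made up 32.5% to 35.8% of these windows, against 42.1% of all called bases of chromosome 2. Whole intervals were then aligned with each other on both strands. Interval 3 aligned to the reverse complement of interval 1 with 89.1% identity over 341 columns, and to that of interval 4 with 91.1% over 303 columns. Interval 2 aligned to the reverse complement of interval 4 with 92.1% identity over 315 columns. Interval 1 aligned to interval 4 in the same orientation with 86.0% identity over 492 columns, and to interval 2 with 89.2% over 268. The remaining pair, intervals 2 and 3, reached 64.4%.

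Inside the intervals the sequence repeated itself at distinct steps. Shifted by 120 bp against itself, interval 3 was identical at 72.6% of positions, and interval 1 had its best match at the same step, with 40.1%. Interval 2 matched itself best at 234 bp, with 65.0%, and interval 4 reached 48.5% at that step and 50.3% at its best step of 485 bp. For comparison, the median over all shifts tried was 27.8% to 32.0% in the 4 intervals. A best step always lies above such a median. At their own best steps the stretches between the intervals, in order, reached 38.7%, 32.0% and 33.2%. The 40.1% of interval 1 was thus little above the first of these. Units of 120 and 234 bp are the lengths by which the minor and major satellites of the mouse are known. Consensus sequences of those satellites were not used here, so the intervals are described by their step only. The closest neighbouring copies of each unit are printed below, plus strand, with capitals at the positions where a copy differs from its neighbour.

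Interval 3, copy 1, chr2:98664983-98665102: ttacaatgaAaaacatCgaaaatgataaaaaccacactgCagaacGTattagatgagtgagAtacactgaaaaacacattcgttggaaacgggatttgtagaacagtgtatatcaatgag
Interval 3, copy 2, chr2:98665103-98665222: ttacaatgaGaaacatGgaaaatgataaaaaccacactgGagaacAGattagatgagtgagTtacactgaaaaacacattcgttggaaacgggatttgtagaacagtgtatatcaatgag
Interval 4, copy 1, chr2:98666549-98666782: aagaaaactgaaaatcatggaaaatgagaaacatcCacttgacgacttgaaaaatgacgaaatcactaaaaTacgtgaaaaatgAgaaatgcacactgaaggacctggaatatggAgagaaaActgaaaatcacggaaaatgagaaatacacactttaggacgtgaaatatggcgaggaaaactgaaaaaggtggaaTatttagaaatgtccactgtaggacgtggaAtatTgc
Interval 4, copy 2, chr2:98666783-98667016: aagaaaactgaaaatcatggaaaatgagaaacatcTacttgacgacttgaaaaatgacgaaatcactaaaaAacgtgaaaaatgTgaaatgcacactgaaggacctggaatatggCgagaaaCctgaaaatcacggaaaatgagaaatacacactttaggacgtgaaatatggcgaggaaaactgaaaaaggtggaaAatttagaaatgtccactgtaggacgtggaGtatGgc

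The pair of 120 bp copies in interval 3 differed at 6 positions, which is 95% identity, and held 4 and 2 CpG sites. The pair of 234 bp copies in interval 4 differed at 8 positions, which is 96.6% identity, and held 7 and 8 CpG sites. The 234 bp pair spans chr2:98666549-98667016 and so lies within the annotated body of Gm10800.

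The gene models overlap intervals 1, 2 and 4 but not interval 3. Gm10801 (ENSMUSG00000075015.3) is annotated at chr2:98662237-98664083 on the plus strand and Gm10800 (ENSMUSG00000075014.1) at chr2:98666547-98667301 on the minus strand, both as protein coding in GENCODE M21. The function of either predicted protein is not known from the sources used here. Every exonic base of both genes is annotated as coding, 504 bp in 4 exons of Gm10801 and 660 bp in 5 exons of Gm10800, and neither has an annotated untranslated region or stop codon. The shortest exon of Gm10801 is 5 bp, and Gm10800 has introns of 1 bp and 4 bp. A start codon is annotated for Gm10800 but not for Gm10801.

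Interval 1 covered the first exon of Gm10801 and 91 bp upstream of the gene. It held 286 exonic and 531 intronic bases, and the summit lay in the first intron in all 7 lists that had a peak. Interval 2 lay wholly inside Gm10801 over its last 2 exons, with 208 exonic and 106 intronic bases, and its summit was intronic in 6 lists and in exon 3 in 1. Interval 3 was entirely intergenic, between the ends of both genes. Interval 4 contained all of Gm10800 with 520 intergenic bases around it, and its summit lay in exon 4 of that gene in every one of the 7 lists. Thus 21 of the 28 peaks overlapped an annotated gene body, 14 of them Gm10801 and 7 Gm10800.

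**Figure D1:**
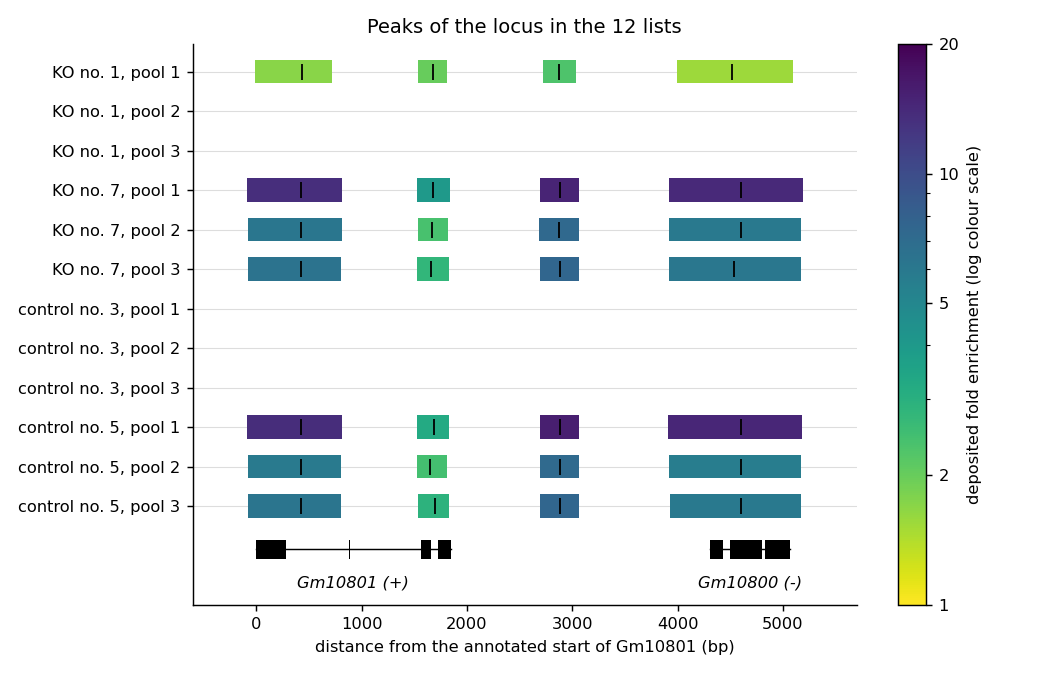
Position of every peak of the locus (horizontal axis, bp from the annotated start of Gm10801) in each of the 12 lists (rows), with colour giving the deposited fold enrichment on a log scale and black ticks the summits. Black boxes at the bottom are exons. The 7 lists with peaks show the same 4 intervals, and 5 lists show none.

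Recurrence was all or nothing. Each of 7 lists held exactly 4 locus peaks, 1 per interval, and the other 5 lists held 0. All 3 pools of control number 5 and all 3 of knockout number 7 had the locus, as did knockout number 1 in pool 1. It was missing from knockout number 1 in pools 2 and 3 and from control number 3 in every pool. The locus was therefore listed in 4 of 6 knockout and 3 of 6 control lists. Among the 6230 merged regions of the series, 85 (1.36%) had a peak in at least 7 lists, and 43 (0.69%) had one in exactly these 7, the 4 intervals included. Of the 39 others, 26 lay in the first 100 kb of assembled chromosome 9.

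With the 3 pools of each number averaged, the knockout had 2.67 locus peaks per list and the control 2.00, a difference of 0.67. The covered length was 1811 bp per list in the knockout and 1404 bp in the control, a difference of 407 bp. No test is given for these differences, since listed peaks chose the locus. With 4 library numbers an exact permutation test has 6 arrangements and a smallest p of 0.33. Without control number 3 the difference in peaks was -1.33 and in length -997 bp, and without knockout number 7 they were -0.67 and -599.7 bp. Which genotype was higher thus hung on single library numbers.

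The borders of the intervals were nearly the same in the 6 lists of numbers 5 and 7. Over these lists, starts varied by 8 to 12 bp and ends by 8 to 29 bp. The peaks of these lists were 887 to 906 bp wide in interval 1, 284 to 314 bp in interval 2, 363 to 376 bp in interval 3 and 1245 to 1271 bp in interval 4. Knockout number 1 in pool 1 had the same 4 peaks with narrower borders, of 730, 275, 306 and 1102 bp.

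Summits varied little in intervals 1 and 3 and more in intervals 2 and 4. In interval 1 they lay from 98662658 to 98662670, a range of 12 bp over 7 lists and both genotypes. In interval 3 they lay from 98665110 to 98665123, a range of 13 bp. In interval 2 they spread over 56 bp, from 98663883 to 98663939. In interval 4 the range was 85 bp, since 5 summits fell from 98666837 to 98666842, while knockout number 1 in pool 1 had 98666757 and knockout number 7 in pool 3 had 98666778. Median summits were 1251, 1203 and 1721 bp apart.

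All 28 peaks had a q-value of 0.05 or less (−log10 q of at least 1.3), a level reached by 320 of all 7582 peaks (4.22%). A fold of at least 2 was reached by 26 of the 28, against 9.17% of all peaks. Both measures helped to choose the locus and nothing is read from these shares. The 28 peaks made up 8.75% of the 320.

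Interval 3, the intergenic one, had the highest fold of the locus in all 7 lists. Its deposited fold enrichment over the background of the peak call was 15.6 in control number 5 in pool 1, 7.20 in pool 2 and 7.505 in pool 3. In knockout number 7 it was 14.8, 7.26 and 7.501 in pools 1, 2 and 3, and in knockout number 1 in pool 1 it was 2.31. The pool 1 lists of numbers 5 and 7 stood well above the rest, number 1 stood below, and the genotypes overlapped. This peak had the highest fold of the whole list in 5 of the 7 lists and the second highest in the pool 1 lists of numbers 5 and 7.

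Interval 1, over the start of Gm10801, came close to it. Its fold was 13.7, 5.87 and 6.22 in pools 1, 2 and 3 of control number 5 and 13.5, 6.20 and 6.37 in those of knockout number 7, while knockout number 1 in pool 1 had 1.70. Pool 1 of numbers 5 and 7 was again on top and number 1 lowest. The −log10 q ran from 13.97 in number 1 to 236 in number 7 in pool 1.

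Interval 4, over the whole of Gm10800, had a fold of 14.5, 5.70 and 5.95 in pools 1, 2 and 3 of control number 5 and of 14.2, 5.97 and 6.10 in those of knockout number 7. In knockout number 1 in pool 1 its fold was 1.55, the lowest of the locus. It nevertheless had the highest −log10 q of any peak in 4 lists, with 300.5 in control number 5 in pool 1 as the top value of the locus.

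Interval 2, over the last exons of Gm10801, was the weakest in 6 of the 7 lists. Its fold was 3.23, 2.43 and 2.92 in pools 1, 2 and 3 of control number 5, 4.02, 2.38 and 2.78 in those of knockout number 7, and 2.00 in knockout number 1 in pool 1. Here the 7 values spanned 2.00 to 4.02, a far narrower range than in the other intervals. Its −log10 q stayed between 5.11 and 13.47.

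**Figure D2:**
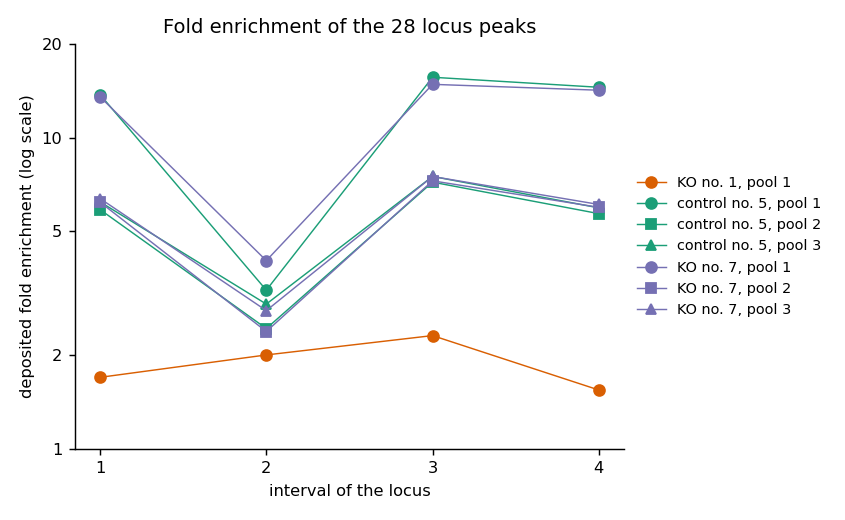
Deposited fold enrichment (vertical axis, log scale) of each locus peak by interval (horizontal axis), 1 line per list, with colour for library number and marker shape for pool. The lists of numbers 5 and 7 run together within each pool, pool 1 lies above pools 2 and 3, and number 1 lies between 1.55 and 2.31.

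Control number 5 and knockout number 7, the only numbers with the locus in all pools, could be compared pool by pool. The ratio of folds, knockout over control, was 1.02 ± 0.036 (SD, n = 3 pools) in interval 1, 1.06 ± 0.16 in interval 2, 0.986 ± 0.033 in interval 3 and 1.02 ± 0.035 in interval 4. In each interval the ratios of the 3 pools lay on both sides of 1, and the fold was higher in the knockout in 6 of the 12 pairs. With 1 library number per genotype these are repeat measurements of 2 DNA libraries and no test of the genotype was made. Over all library numbers with a locus peak, the log2 of the highest fold was lower in the knockout by a mean difference of -1.03 (knockout 2 numbers, control 1), again with no test. Without knockout number 1 the difference was -0.02, so it rested on the single list of number 1.

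The folds can be split into their parts. Fold and p of a peak were solved together for the pileup of fragments at the summit and the background it was set against, under the form that MACS2 uses, which is an assumption about the run. In the 7 lists with the locus, 97.7% to 100% of all peaks had a whole-number pileup. Outside the locus the backgrounds of 97.6% to 100% of the peaks with a pileup of at least 50 were whole multiples of 1 number per list, taken as the scale put on the control library of the peak call. That control is not named in the sources used here. The scale was chosen as the largest number of which at least 90% of these backgrounds were whole multiples. A share of 90% or more was therefore built in. Dividing the locus backgrounds by the scale gave the control pileup at each summit, in unscaled fragments.

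In interval 4 the control pileup was 400 in all 7 lists, and the immunoprecipitated pileup was 400 in 6 and 398 in control number 5 in pool 1. No peak of any of these lists exceeded 400. That is also the most that fragments extended to 200 bp can reach if each position counts once per strand. Whether duplicate reads were removed is not given, and whether 400 is such a ceiling was not tested. With both pileups equal, the fold of interval 4 was fixed by the scale alone: at 400 against 400 the scales give 14.6, 5.70 and 5.95 for number 5, 14.2, 5.97 and 6.10 for number 7 and 1.55 for number 1.

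In interval 1 the immunoprecipitated pileup was 315, 343 and 348 in pools 1, 2 and 3 of control number 5 and 322, 350 and 352 in those of knockout number 7. Knockout number 1 in pool 1 had 367, the highest of the 7, although its fold was the lowest. The control pileups there were 332 for number 5, 336 for number 7 and 334 for number 1. Before scaling, immunoprecipitation and control thus differed by 0.949 to 1.10 times.

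Interval 3 was the only interval where the immunoprecipitated pileup exceeded the control in every list. It was 231, 267 and 267 in control number 5, 233, 267 and 270 in knockout number 7 and 315 in knockout number 1 in pool 1. Against control pileups of 209, 217 and 210 for these numbers, the ratio ran from 1.07 to 1.5 with a median of 1.24. Interval 2 was the opposite in 6 of the lists. Its pileup was 38, 69 and 78 in control number 5 and 57, 79 and 90 in knockout number 7, or 0.228 to 0.497 times the control, but it was 212 in knockout number 1, or 1.3 times the control. For comparison, the median ratio over the other peaks with a pileup of at least 50 was 0.447 to 0.636 in the lists of numbers 5 and 7 and 1.06 in that of number 1.

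**Figure D3:**
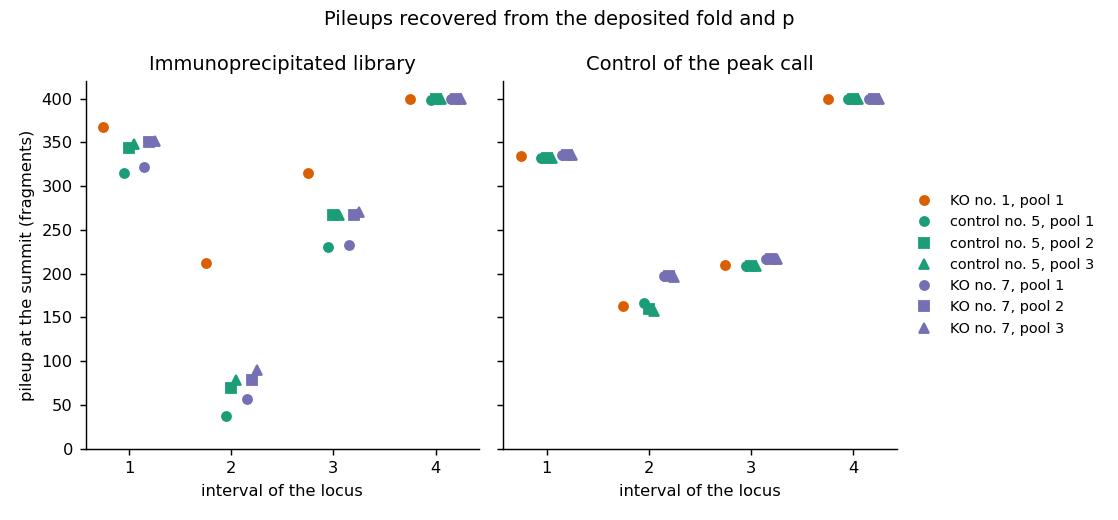
Pileup of fragments at the summit (vertical axis) by interval, recovered for the immunoprecipitated library (left) and for the control of the peak call (right), with colour for library number and marker shape for pool. Interval 4 sits at 398 to 400 on both sides. In interval 2 knockout number 1 had 212 fragments against 38 to 90 in the other lists.

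The higher folds of pool 1 went with a lower scale and not with a higher pileup. In number 5 the fold of interval 3 in pool 1 was 2.13 times the mean of pools 2 and 3, while its pileup was 0.865 times that mean. In number 7 the corresponding values were 2.01 and 0.868. The scale was 0.0662 in pool 1 of number 5 against 0.173 and 0.166 in pools 2 and 3, and 0.0681 in pool 1 of number 7 against 0.165 and 0.162. It was 0.646 in knockout number 1 in pool 1. In pools 1, 2 and 3 the pileup was higher in number 7 than in number 5 in 9 of 12 pairs and equal in 3, by 1.14 to 1.5 times in interval 2 and by at most 1.02 times in the others. The control pileup of interval 2 was also higher for number 7, at 196 to 197 against 157 to 167.

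The 5 lists without the locus were scaled in the other direction. In them 75.0% to 100% of peaks could be solved with a background on a grid of 50 steps per fragment. In the 7 lists with the locus 0.153% to 6.15% could. This is a looser measure than a whole-number pileup, which at most 8.16% of peaks had in the 5 lists. By this reading the immunoprecipitated library had been scaled down instead, by 0.678 and 0.706 in pools 2 and 3 of knockout number 1. For control number 3 the scales were 0.631, 0.254 and 0.260 in pools 1, 2 and 3. If both pileups were 400 there as in interval 4, these scales would give folds of 0.256 to 0.707, below the lowest fold of any listed peak, 1.05. That sum holds for even pileups only. In interval 3 of the 7 lists with the locus, the immunoprecipitated pileup was 1.07 to 1.5 times the control. No such fold was worked out for interval 3. Whole-number pileups made up 97.7% or more of peaks in lists with the locus and 8.16% or less in the others. By these shares the direction of scaling and the presence of the locus went together in 12 of 12 lists. The scale step itself took the background as scaled in any list with the locus, so its labels add nothing to this. The pileups at the locus in those 5 lists are not known, and the part of the scaling in its absence was not tested.

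The 4 intervals stood out from their surroundings in CpG content. They held 67 CpG sites in 2876 bp, or 2.33 per 100 bp, against 15 in the 2402 bp between them (0.624 per 100 bp) and 32 in the 5 kb on each side (0.320 per 100 bp). Chromosome 2 as a whole has 0.853. The ratio of observed to expected CpG sites was 0.869, 0.633, 0.937 and 0.758 in intervals 1 to 4, against 0.104 to 0.222 in the stretches between and 0.193 over chromosome 2. G and C were scarcer in the intervals, at 34.5%, than between them, at 39.2%. The lists give no methylation or sequence context, so which of these CpG sites carried 5hmC was not measured.

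Words repeated in the assembly were less frequent in the intervals than in the stretches between them, while highly repeated words were more frequent in 3 of the 4. Of the 31-base words of the 4 intervals, 55.2%, 29.9%, 56.2% and 63.7% occurred at more than 1 position of the genome, and in the stretches between them the shares were 82.1%, 77.7% and 89.3%. The median copy number of a 31-base word within 200 bp around the summits was 2. Words found at 10 or more positions were 9.11% of interval 1, 17.6% of interval 2 and 23.3% of interval 4, and 0 of interval 3, whose most frequent word had 8 positions. In the stretches between the intervals these shares were 4.70%, 0 and 1.60%, and in the 5 kb before and after the locus they were 27.8% and 35.1%.

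**Figure D4:**
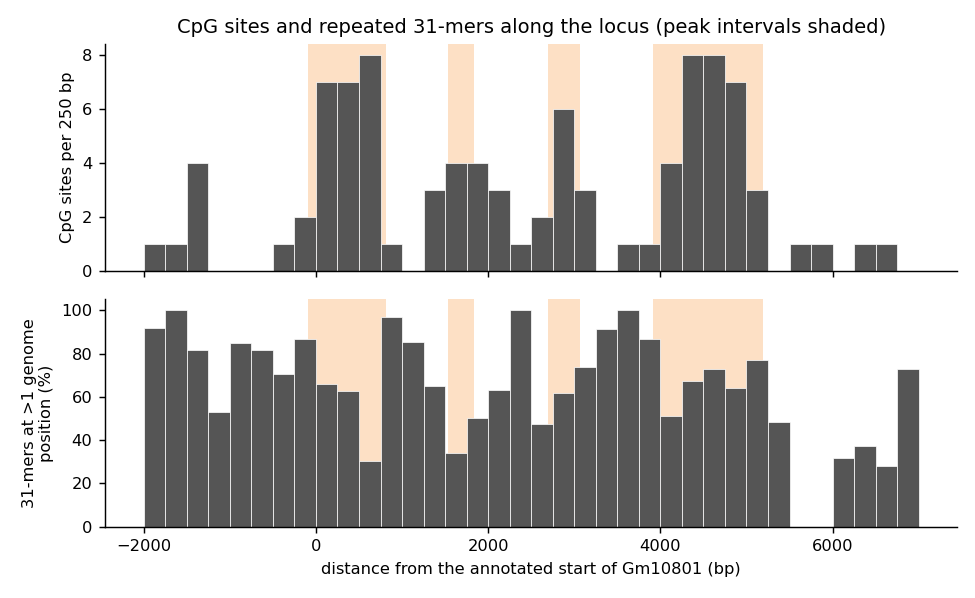
CpG sites per 250 bp (upper) and the share of 31-base words at more than 1 genome position (lower) along the locus, by distance from the annotated start of Gm10801, with the 4 peak intervals shaded. CpG sites reach 7 to 8 per window in intervals 1 and 4. Over whole segments the share of words at more than 1 position is lower in the intervals (29.9% to 63.7%) than in the stretches between them (77.7% to 89.3%). Single windows overlap, with up to 72.8% inside interval 4 and down to 63.2% between intervals 2 and 3.

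The other positions of these words were concentrated in few places. On the assembled chromosomes, 6983 positions outside the locus held a 31-base word of the intervals, and 5704 of them (81.7%) lay in the first 100 kb of assembled chromosome 9. Another 7452 lay on unplaced or unlocalized contigs. In windows of 10 kb, 8 had at least 100 such positions: 4 at the start of chromosome 9, 1 at chr14:19410001-19420000 in which Gm21738 is annotated, 1 at chr9:35300001-35310000 with Gm33838, 1 at chr6:103640001-103650000 within Chl1, a neural cell adhesion gene, and 1 at chr12:3100001-3110000 with no annotated gene. All 8 had peaks in exactly the 7 lists with the locus, but the 4 at the start of chromosome 9 adjoin each other. Among merged regions the share with exactly these lists was 0.69%, and no share over all 10 kb windows is given. Of 15 windows with fewer such positions, 6 had a peak and 4 had peaks in exactly those lists.

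The regions whose fold ran most like that of the locus were drawn from the same places. Over 170 regions outside the locus with a peak in at least 4 lists, the 5 with the highest Pearson r of log2 fold over the 12 lists (absent peaks set to a fold of 1) all had r of 0.998 or more. They were chr9:3003937-3004902 and chr9:3006214-3008153, which overlap Gm11168 and Gm26870, chr9:3023308-3025253, which overlaps Gm10718 and Gm26870, chr6:103649008-103649386 in Chl1, and chr14:19415675-19419548 in Gm21738. The points share libraries and scales, 5 of the 12 are lists without a peak, and 41 of the 170 regions had r above 0.9, so these values describe the lists and say nothing of shared control.

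Set beside the first 100 kb of chromosome 9, the locus had the higher top fold in all 7 lists, but fold helped to choose the locus. The Chl1 region reached a fold of 15.96 in knockout number 7 in pool 1, above the 14.8 of the locus there. The other regions most like the locus had highest folds of 7.01 to 13.0. In the windows sharing its words the highest folds ran from 6.06 to 15.96. The window chr12:3100001-3110000 reached 15.3 and chr9:35300001-35310000 reached 14.5. The top folds at chromosome 9 were 12.9, 6.03 and 6.32 in pools 1, 2 and 3 of control number 5, 13.0, 6.55 and 6.97 in those of knockout number 7 and 1.89 in knockout number 1 in pool 1. The locus and the first 100 kb of chromosome 9 had peaks in the same 7 lists. The mitochondrial genome, present in many copies per cell, differed from both: it had peaks in 11 of the 12 lists, with top folds of 1.34 to 5.39, and those included 4 of the 5 lists without the locus. On chromosome 2 itself the lists held 430 other peaks, of which 5 lay within 1 Mb of the 100 kb and 1 had a q-value of 0.05 or less.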

How the data were processed

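DNA immunoprecipitated for 5hmC was sequenced in 12 libraries, and 4 input libraries were not analysed here. Per the submitters' processing notes, Bowtie2, SAMtools, MACS2 and the build mm10 were used, with no versions or settings given; all 7582 peaks ended within their GRCm38 chromosome. The authors deposited 1 peak list per library: a fold enrichment (a linear ratio) per peak, the −log10 of its p-value and q-value, a score of 10 times the −log10 p, and the offset of the summit. Depth is not given in the sources used here. The 28 peaks and the gene lists were chosen with earlier results of these data known. Genes named are those annotated in the 100 kb and those overlapping the 5 regions most like the locus or the windows sharing its words.

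Peaks were merged where they touched (Python 3.11.15, pandas 2.3.3). Pileups were solved with scipy 1.17.1, counted as whole within 0.05, with scales from peaks outside the locus; this step was chosen after seeing the data. Genome words were counted on both strands in the 21 chromosomes, mitochondrion and contigs. Local alignments used biopython 1.88 (match 1, mismatch -1, gap -3 and -1). Word counts and pileup recovery were tested on simulated data. Permutation tests of genotype were planned but are not given, since the tested measures chose the locus. Sequences are RefSeq's GRCm38, and genes are GENCODE M21. Alternatives covered thresholds, pools, library numbers, merging and word length.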

Additional observations from a re-analysis of the deposited data

Results flagged for a closer look

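In knockout lists that had the locus, knockout number 1 in pool 1 lay far below the other 3 in peak width in 3 intervals. It was 730 bp wide in interval 1 against 890 to 906 bp, 306 bp in interval 3 against 363 to 372 bp, and 1102 bp in interval 4 against 1249 to 1271 bp. Among the 7 lists with the locus it also had the scale nearest to 1, at 0.646. Among independent values a gap of this size is met by chance in about 1 of 20 groups. The other 3 lists are all pools of knockout number 7, treated here as repeats of a single DNA sample, so that rate does not apply to these widths. Of the 19 sets of values examined, 3 showed such a gap. The 3 widths come from 1 list and are not independent.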

How the results depend on the processing

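All 28 peaks had a q-value of 0.05 or less, so a cut there could not change the 4 intervals or the 7 lists. The 7 lists held at a fold of at least 2, but fold helped to choose the locus. Merging peaks up to 1000 bp apart joined the locus to 1 interval. The median copy number of 2 became 5 with words of 21 bases and 1 with words of 51 bases, and stayed 2 over whole peaks. Taking the 12 libraries within pools (pool as replicate block) could not change the differences of 0.67 peaks and 407 bp, since every number has a list in each pool. The log2 highest fold gave -0.52, with lists averaged in place of library numbers. No p is given, since these measures chose the locus and no call was made. Pool 2 alone and pool 3 alone each gave a difference of 0 peaks. Leaving out 1 library number at a time gave differences of -1.33 to 2.67 peaks, -997 to 1811 bp and -2.03 to -0.02 in log2 highest fold, which has no value without control number 5. The log2 difference reversed to 0.19 with absent lists set to a fold of 1 and to 0.014 in pool 2 alone. It was 0.13 with recovered pileup over control pileup, an alternative chosen after seeing the data. Beyond what the left-out lists show, the cause was not tested. The lists hold no read counts, 4 library numbers cannot reach p of 0.05, and reads of repeated sequence cannot be assigned to 1 place.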
